A study of Homo sapiens with 12 samples.

Results

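The ATP-binding cassette (ABC) transporter genes were followed in human SNU449 liver cancer cells with and without Axl, each as control cells and as cells resistant to the kinase inhibitor Regorafenib (Rego). Members were the protein-coding genes named ABC, followed by a subfamily letter from A to G and a number, in the table over all 12 libraries. The rule found 27 genes among 15601 tested genes, of which 12339 are protein-coding. It goes by name, but only among the genes left after the authors had filtered out those with low expression. By role they fell into 8 multidrug and conjugate efflux pumps, 8 cholesterol and lipid transporters, 4 mitochondrial and lysosomal ABCB transporters, 3 peroxisomal and lysosomal ABCD transporters and 4 ABC proteins without membrane domains.

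SNU449 is an established hepatocellular carcinoma line with a mesenchymal-like phenotype, and SNU449-Axl- cells derive from it by CRISPR/Cas9 editing of AXL, the receptor tyrosine kinase gene. The 4 groups were SNU449 control cells (wild-type, naive), SNU449 Rego-resistant cells (wild-type), SNU449-Axl- control cells (knockout, naive) and SNU449-Axl- Rego-resistant cells (knockout), with 3 libraries in each. Resistance was raised in steps from 50% of the IC50, the concentration at which Rego inhibits by 50%, up to 2 times the IC50, and the drug was given again after each splitting. All groups shared the same line and culture medium. The libraries of a group were technical triplicates of 1 cell population, so that the p-values measure only the spread between libraries, and an effect of Rego or Axl cannot be told apart from other differences between the populations. In bulk RNA, fewer cells of a type and less RNA per cell cannot be told apart either.

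ABC transporters bind and hydrolyse ATP to move substrates across a membrane. In the liver, several of them pump conjugated metabolites, bile acids, lipids and drugs out of the hepatocyte, and the ABCB1, ABCC and ABCG2 pumps are known for carrying many unrelated drugs out of tumor cells. Other members move cholesterol and phospholipids, import fatty acyl groups into the peroxisome or export products from the mitochondrion, whereas the ABCE and ABCF proteins lack membrane domains and take part in translation.

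Each gene is given by 2 quantities. The library value is 2 raised to the variance-stabilized level after the authors had removed the preparation effect, and it is not a read count. The mean normalized count of a group was solved from the authors' means over the pairs of groups, for 26 of the 27 genes, and carries no SD. Fold changes are on the log2(library value + 1) scale, which understates the change of genes with low counts. A gene was called when limma, with the replicate number as a block, gave it a p under 0.05 after Benjamini-Hochberg adjustment over all 15601 genes. In libraries of the 3′ ends of mRNA a transcript gives reads near its end, so that counts were not divided by transcript length. Levels were not ranked between genes, and only the cell markers and the sum over the efflux pumps set them side by side.

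The depth of single libraries is unknown, and the mean normalized counts of the 8 tables summed to between 4159387 and 4916825. AXL checked the labels, since its log2 fold change with loss of Axl was -4.29 in control cells and -4.52 in Rego-resistant cells (limma, adjusted p = 2.16e-09 and 1.27e-09). Of 7 hepatocyte markers, only APOA1 was in the table, with a mean normalized count of 1.14, whereas the mesenchymal gene VIM had 18950. Of the 3 mesenchymal markers, FN1 was called, with a fall of 2.24 with Rego resistance in SNU449 and a rise of 2.47 in SNU449-Axl- cells (limma, adjusted p = 0.000686 and 0.000544), whereas VIM stood at 0.24 and -0.40 and CDH2 at -0.45 and -0.66 (adjusted p = 0.619, 0.402, 0.511 and 0.331). With loss of Axl in control and Rego-resistant cells, FN1 fell by 2.25 and rose by 2.46 (limma, adjusted p = 0.000867 and 0.000489), and neither VIM nor CDH2 was called (adjusted p from 0.441 to 0.959). KRT8, an epithelial keratin gene, rose by 0.79 and 1.58 with loss of Axl in control and Rego-resistant cells (limma, adjusted p = 0.0332 and 0.000248), the former lost without 5 of the 12 libraries (up to 0.181). Among 4 epithelial markers, KRT18 was called in no comparison, and EPCAM and CDH1 were not in the table. The hepatoma marker AFP was called higher with loss of Axl in control cells, a call lost without 6 of the 12 libraries. GPC3, also a hepatoma marker, was called higher with Rego resistance in SNU449-Axl- cells and with loss of Axl in Rego-resistant cells. Mean normalized counts of AFP and GPC3 were low (4.264 and 16.98). The part of such cell-state genes in the results below was not tested.

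ABCC3 and ABCA3 were called higher with Rego resistance in both backgrounds. Loss of Axl in control cells had ABCB1 called higher and ABCC2 lower, and in Rego-resistant cells ABCG2 was called higher. In SNU449, 7 of the 27 genes were called, 4 higher and 3 lower in Rego-resistant cells, beside 7.81% of all genes (4.31% higher and 3.5% lower). Leaving out single libraries gave 1 to 7 genes, with 1 left without SNU449 Rego-resistant library 2 and 2 without SNU449 control library 2 or Rego-resistant library 3, and the table of the pair of groups gave 3, beside 4.36% of its genes. In SNU449-Axl- cells 3 genes were called, all higher, beside 4.35% of all genes (2.54% higher). Loss of Axl changed 2 genes in control cells, 1 in each direction, beside 7.45% of all genes (4.03% higher and 3.43% lower). It changed 1 gene in Rego-resistant cells, which was higher, beside 4.37% (2.44% higher). The Rego effect differed between SNU449 and SNU449-Axl- cells for 2 genes, both with a lower effect in SNU449, beside 5.87% of all genes (2.92% lower). The share of members was 25.9% in the first comparison, 11.1% in the second, and 7.41%, 3.7% and 7.41% in the others, and with loss of Axl it was close to that of all genes. Without the block, 7, 5, 2, 3 and 4 members were called in the same order, beside 13.9%, 9.95%, 14.0%, 9.63% and 11.7% of all genes.

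**Figure D1:**
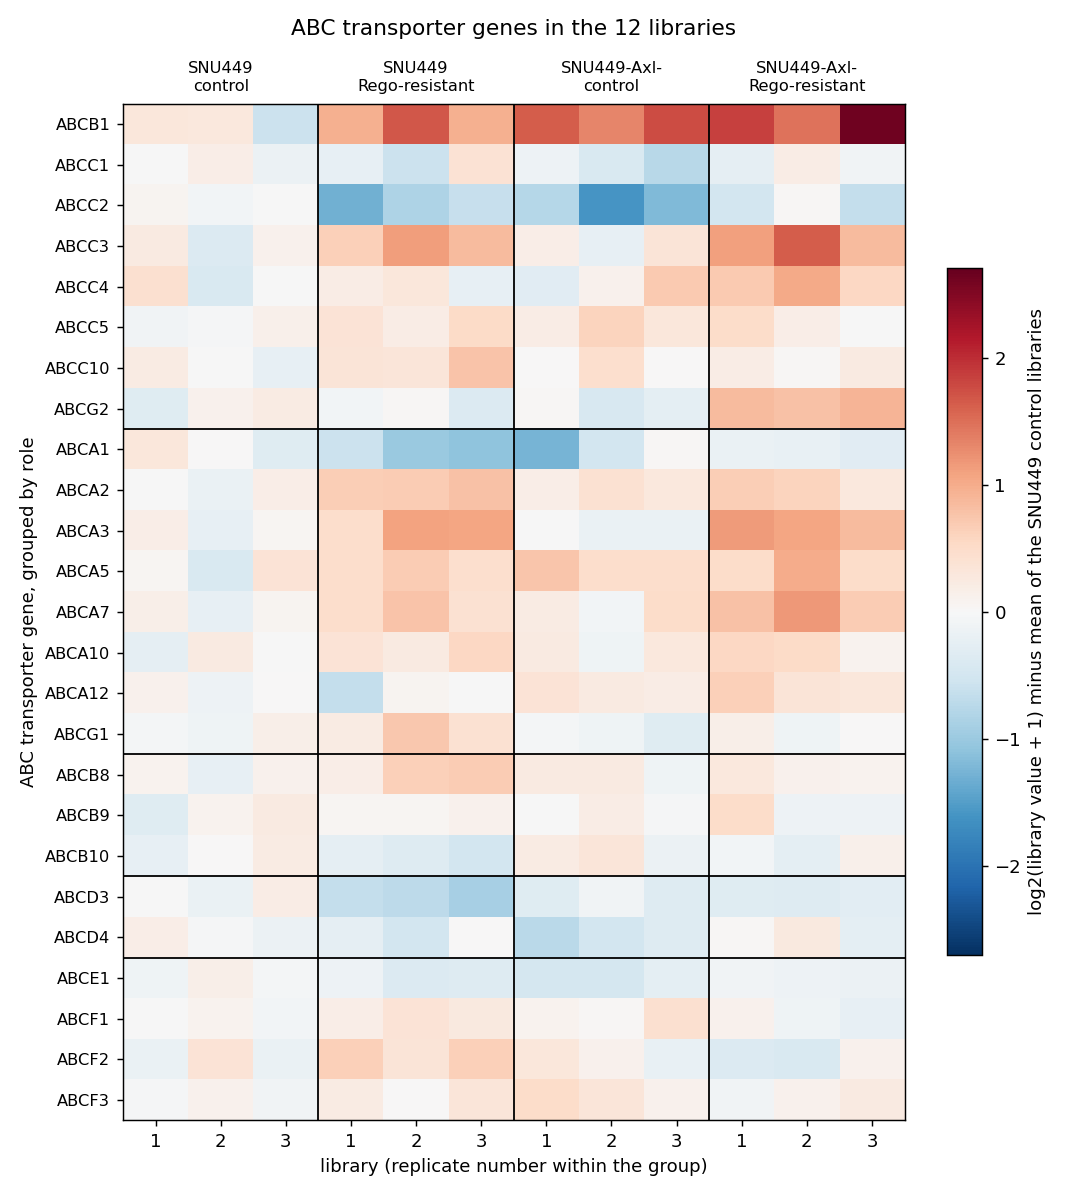
Each cell is 1 ABC transporter gene (vertical axis, grouped by role) in 1 of the 12 libraries (horizontal axis), and the color gives log2(library value + 1) minus the mean of the 3 SNU449 control libraries, red for higher and blue for lower. ABCB1 was above that mean in all 9 libraries of the other groups, and ABCD3 was lowest in the SNU449 Rego-resistant libraries.

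Separation of the libraries was counted too. Between SNU449 control and Rego-resistant cells the libraries of 16 genes did not overlap (11 higher, 5 lower), which is 59.3% of the members beside 27.9% of all genes (14.6% higher and 13.3% lower). In SNU449-Axl- cells 7 genes did not overlap, all higher, beside 29.1% of all genes (15.0% higher). With loss of Axl, 7 genes did not overlap in control cells and 9 in Rego-resistant cells, beside 27.9% and 28.0%. The median fold change of the members lay between 0.12 and 0.19 on the log2 scale in these 4 comparisons, where that of all genes was at most 0.014.

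Among the efflux pumps, ABCB1 encodes P-glycoprotein (MDR1), which pumps hydrophobic drugs out of cells. The gene lies at chr7:87503017-87713323 on the minus strand of GRCh38, with 28 exons in its main transcript. RefSeq lists 2 start sites with a window each, 1 inside the gene and 1 at its outer end. The stretch below is shown because ABCB1 changed with both Rego resistance and loss of Axl. It runs from 250 to 195 bases before the inner start site, in an intron of transcripts from the outer start, at chr7:87601079-87601134 on the minus strand (GRCh38.p14). Capitals mark a CCAAT box (letters CCAAT, from base -238) and a match to the AP-1 pattern searched (TGANTCA, from base -234), which share 1 base. The pattern allows any base at N, which is T here, and binding of AP-1 was not tested.
ABCB1, inner start: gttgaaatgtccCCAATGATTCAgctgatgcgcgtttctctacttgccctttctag
A second CCAAT box, on the other strand, lies at base -79 of the same window. The outer window held none of the 6 motifs searched.

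The ABCB1 library values were 64, 63 and 34 in SNU449 control cells and 102, 167 and 102 in SNU449 Rego-resistant cells. In SNU449-Axl- cells they were 163, 131 and 177 in control cells and 188, 144 and 324 in Rego-resistant cells. The SNU449 control libraries were lower than all others, and the other 3 groups overlapped in part. With Rego resistance in SNU449, ABCB1 rose by 1.20 ± 0.30 (SE) on the log2 scale, from 5.72 ± 0.51 to 6.92 ± 0.41 (SD, n = 3; limma, adjusted p = 0.0175). The mean normalized count of ABCB1 went from 24.7 to 92.2. Loss of Axl in control cells raised ABCB1 by 1.58 ± 0.30 (SE; limma, adjusted p = 0.00311), to a mean normalized count of 143. ABCB1 was at 7.29 ± 0.22 in SNU449-Axl- control cells and at 7.69 ± 0.59 in SNU449-Axl- Rego-resistant cells, which had a mean normalized count of 219. These did not pass the test (0.40, 95% interval -0.23 to 1.03, limma, adjusted p = 0.518), nor did loss of Axl in Rego-resistant cells (0.77, 95% interval 0.14 to 1.40, adjusted p = 0.166). Whether the Rego effect on ABCB1 differed between SNU449 and SNU449-Axl- cells was not resolved, since the difference was 0.80 with a 95% interval from -0.09 to 1.69 (limma, adjusted p = 0.32). The Rego call in SNU449 was lost without SNU449 control library 3 (0.81, adjusted p = 0.125) and without Rego-resistant library 2 (0.89, adjusted p = 0.14), whereas the call with loss of Axl held without any of the 12 libraries. The value in SNU449-Axl- cells rested on Rego-resistant library 3, without which it was -0.03 (limma, adjusted p = 0.977).

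Chromosomal neighbors were set beside ABCB1, and a change shared by the region was not tested. Of 5 other genes within 1 Mb that had a mean normalized count of at least 30, none were called in either comparison (limma, 1 at an unadjusted p under 0.05 in each), with fold changes from -0.32 to 0.47 for Rego resistance in SNU449 and from -0.40 to 0.58 for loss of Axl in control cells. Among 12 listed neighbors on 7q21, 8 were in the table. For Rego resistance in SNU449 and loss of Axl in control cells, CROT stood at 0.33 and 0.58 and SRI at -0.32 and -0.40. CROT, which encodes a peroxisomal carnitine acyltransferase, was the neighbor called, lower by 0.75 with Rego resistance in SNU449-Axl- cells (limma, adjusted p = 0.038), a call lost without 5 of the 12 libraries (SNU449-Axl- control library 1, 2 or 3 or Rego-resistant library 2 or 3, adjusted p up to 0.218).

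**Figure D2:**
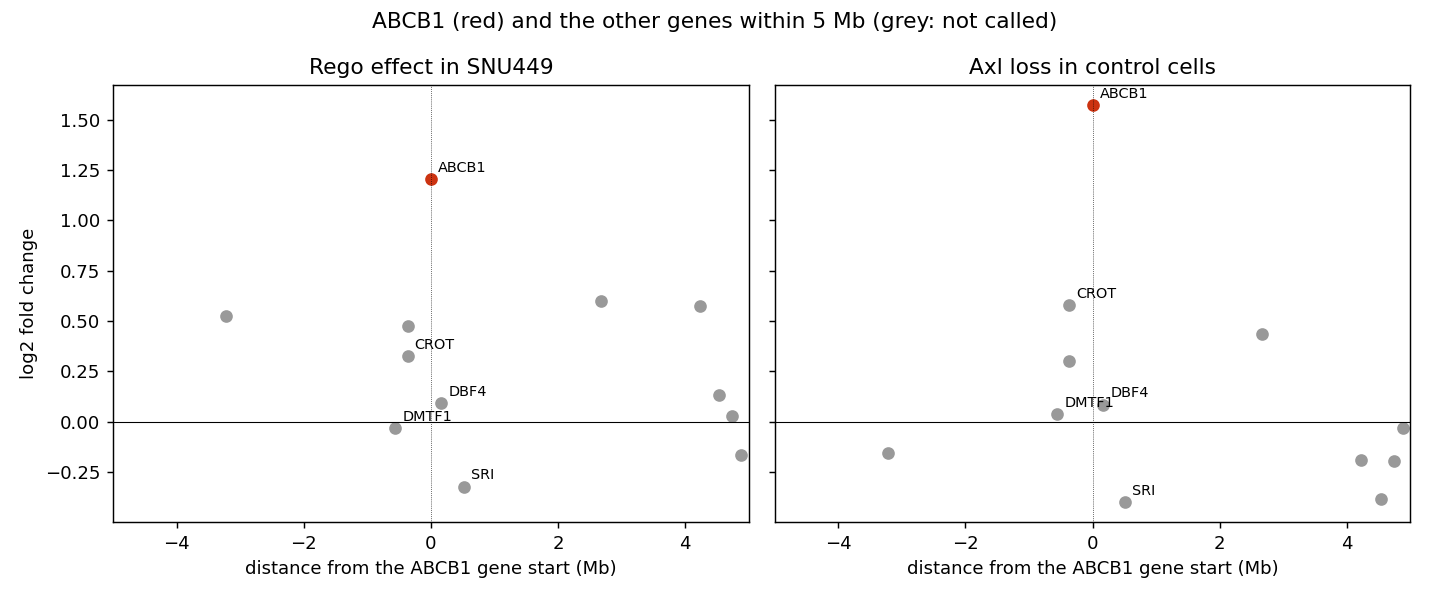
Log2 fold change (vertical axis) of ABCB1 in red and of other measured genes within 5 Mb, against the distance of their starts from the ABCB1 start in Mb (horizontal axis), for Rego resistance in SNU449 (left) and loss of Axl in control cells (right). ABCB1 stood at 1.20 and 1.58, above every other gene shown.

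ABCC2 encodes MRP2, which exports conjugated metabolites across the canalicular membrane into bile. It lies at chr10:99782640-99852594 on the plus strand. Its window is shown because ABCC2 moved opposite to ABCB1 with Rego resistance in SNU449 and with loss of Axl in control cells, and it covers the 250 bases before the start site at chr10:99782390-99782639 on the plus strand (GRCh38.p14). Capitals mark the TATA box letters (TATAAA, from base -236), the single motif found. Such letters were in 10.7% of all windows, and whether they act as a TATA box so far from the start site was not tested.
ABCC2: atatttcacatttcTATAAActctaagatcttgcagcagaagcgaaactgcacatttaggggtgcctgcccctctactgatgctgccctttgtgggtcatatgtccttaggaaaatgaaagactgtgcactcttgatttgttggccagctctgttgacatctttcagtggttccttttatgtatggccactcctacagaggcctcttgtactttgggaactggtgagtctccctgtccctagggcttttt
Neither a CCAAT box nor the AP-1 pattern was found in these letters, as in most windows. Of all 35116 windows, 32.0% held a CCAAT box and 6.57% the AP-1 pattern. A link between these motifs and the changes of either gene was not tested.

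Library values of ABCC2 were 507, 458 and 476 in SNU449 control cells and 196, 268 and 311 in SNU449 Rego-resistant cells. They were 280, 158 and 209 in SNU449-Axl- control cells and 342, 489 and 307 in SNU449-Axl- Rego-resistant cells. Rego-resistant cells were thus lower than control cells in SNU449 and higher in SNU449-Axl- cells, without overlap in either. ABCC2 fell by 0.92 ± 0.24 (SE) on the log2 scale with Rego resistance in SNU449, from 8.91 ± 0.07 to 7.99 ± 0.34 (SD, n = 3; limma, adjusted p = 0.0238). It fell by 1.19 ± 0.24 (SE) with loss of Axl in control cells, to 7.72 ± 0.41 (limma, adjusted p = 0.00474). In SNU449-Axl- Rego-resistant cells it was at 8.54 ± 0.35, 0.82 above SNU449-Axl- control cells, which did not pass the test (limma, adjusted p = 0.0603). The rise passed without the block (limma, adjusted p = 0.0278), a more lenient fit that called 9.95% instead of 4.35% of all genes. With spike-in centring it passed too (0.96, limma, adjusted p = 0.0273). Loss of Axl in Rego-resistant cells gave 0.55 with a 95% interval from 0.04 to 1.05 (limma, adjusted p = 0.228), which became 0.84 with spike-in centring (adjusted p = 0.0321). The Rego effect differed between the backgrounds by -1.74 ± 0.34 (SE; limma, adjusted p = 0.00476), and this held without any single library. The mean normalized counts of ABCC2 were 459 and 200 in SNU449 and 221 and 410 in SNU449-Axl- cells.

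The call of ABCC2 with Rego resistance in SNU449 was lost without any one of SNU449 control libraries 1, 2 and 3 (adjusted p = 0.0845, 0.0685 and 0.0589) or of Rego-resistant libraries 1 and 2 (adjusted p = 0.16 and 0.0625), with fold changes from -1.11 to -0.67 over all libraries left out in turn. The call with loss of Axl was lost without SNU449-Axl- control library 2 (-0.92, limma, adjusted p = 0.0595).

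ABCC3 encodes MRP3, an exporter of conjugates at the blood side of the hepatocyte, and lies at chr17:50634777-50692253. Its library values were 353, 229 and 323 in SNU449 control cells and 462, 649 and 538 in SNU449 Rego-resistant cells. In SNU449-Axl- cells they were 337, 254 and 376 in control cells and 641, 928 and 539 in Rego-resistant cells. Both Rego-resistant groups were above both control groups without overlap. ABCC3 rose by 0.87 ± 0.24 (SE) with Rego resistance in SNU449 and by 1.10 ± 0.24 (SE) in SNU449-Axl- cells (limma, adjusted p = 0.0307 and 0.0127). Loss of Axl gave 0.10 in control cells (95% interval -0.40 to 0.60) and 0.33 in Rego-resistant cells (95% interval -0.17 to 0.83), neither of which passed (limma, adjusted p = 0.864 and 0.518). The 2 Rego effects on ABCC3 differed by -0.23, with a 95% interval from -0.94 to 0.48 (limma, adjusted p = 0.783).

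The ABCC3 call in SNU449 was lost in the table of the pair of groups (0.85, adjusted p = 0.0688) and without SNU449 control library 2, Rego-resistant library 2 or Rego-resistant library 3 (limma, adjusted p = 0.219, 0.175 and 0.0883). The ABCC3 call in SNU449-Axl- cells was lost without control library 2 (0.89, adjusted p = 0.126) or Rego-resistant library 2 (0.81, adjusted p = 0.144). Of 20 other genes within 1 Mb, 3 were called higher with Rego resistance in SNU449 (PPP1R9B, SPAG9 and TMEM92), and in SNU449-Axl- cells 1 was higher (ITGA3) and 3 were lower (COL1A1, LRRC59 and TMEM92), all named after their values were seen.

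ABCG2 encodes the breast cancer resistance protein BCRP, which carries drugs, porphyrins and urate out of cells, and lies at chr4:88090150-88231628 on the minus strand. Its library values were 40, 55 and 59 in SNU449 control cells and 48, 52 and 39 in SNU449 Rego-resistant cells. SNU449-Axl- control cells had 52, 37 and 42, whereas SNU449-Axl- Rego-resistant cells had 93, 88 and 96. The SNU449-Axl- Rego-resistant libraries were above all others, and the other 3 groups overlapped. ABCG2 rose by 1.08 ± 0.21 (SE) with Rego resistance in SNU449-Axl- cells, from 5.47 ± 0.24 to 6.54 ± 0.06 (SD, n = 3; limma, adjusted p = 0.00569). It was 0.99 ± 0.21 (SE) higher in SNU449-Axl- than in SNU449 Rego-resistant cells (limma, adjusted p = 0.0102). The change with Rego resistance in SNU449 was -0.14 (95% interval -0.57 to 0.30, limma, adjusted p = 0.77), and loss of Axl in control cells gave -0.22 (95% interval -0.66 to 0.22, adjusted p = 0.605). The Rego effect was 1.21 ± 0.30 (SE) lower in SNU449 than in SNU449-Axl- cells on the log2 scale (a difference of -1.21, limma, adjusted p = 0.019). The mean normalized counts behind these values were low, 22.1 and 16.0 in SNU449 control and Rego-resistant cells and 17.8 and 72.5 in the same groups of SNU449-Axl- cells.

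Leaving out SNU449-Axl- control library 2 ended the ABCG2 call for Rego resistance (0.93, limma, adjusted p = 0.0672). The call for loss of Axl was lost without SNU449 Rego-resistant library 3 (adjusted p = 0.0687) and without SNU449-Axl- Rego-resistant library 1 or 3 (limma, adjusted p = 0.058 and 0.0544). The difference between the backgrounds was lost without SNU449 control library 2, SNU449 Rego-resistant library 3, SNU449-Axl- control library 2 or SNU449-Axl- Rego-resistant library 1 or 3, with adjusted p up to 0.0837. Of 8 other genes within 1 Mb of ABCG2, 4 were called higher with Rego resistance in SNU449-Axl- cells (HERC5, HSD17B11, PKD2 and SPP1, named after their values were seen), with a median fold change of 0.55 over the 8. With loss of Axl in Rego-resistant cells SPP1 was called higher, with a median of 0.15 over the 8.

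ABCC1, which encodes the glutathione conjugate exporter MRP1, lies at chr16:15949138-16143257 and passed the test in no comparison. Its library values were 175, 200 and 160 in SNU449 control cells and 153, 119 and 232 in SNU449 Rego-resistant cells. They were 161, 134 and 106 in SNU449-Axl- control cells and 151, 204 and 165 in SNU449-Axl- Rego-resistant cells, and all 4 groups overlapped. The fold changes of ABCC1 were -0.13 with Rego resistance in SNU449 (95% interval -0.64 to 0.37), 0.38 in SNU449-Axl- cells (-0.12 to 0.89), -0.43 with loss of Axl in control cells (-0.93 to 0.08) and 0.09 in Rego-resistant cells (-0.42 to 0.59). Their limma adjusted p were 0.808, 0.43, 0.323 and 0.894. The 2 Rego effects on ABCC1 differed by -0.52, with a 95% interval from -1.23 to 0.20 (limma, adjusted p = 0.449).

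The other 3 efflux pump genes were also called in no comparison. ABCC4 encodes MRP4, an exporter of cyclic nucleotides and bile acids. It had library values of 1186, 663 and 880 in SNU449 control cells and of 1017, 1086 and 759 in SNU449 Rego-resistant cells. In SNU449-Axl- cells ABCC4 had 717, 962 and 1439 in control and 1445, 1805 and 1302 in Rego-resistant cells, which overlapped each other. Its mean normalized counts were 858, 822, 1136 and 1696 in SNU449 control, SNU449 Rego-resistant, SNU449-Axl- control and SNU449-Axl- Rego-resistant cells. The table of the pair of Rego-resistant groups and spike-in centring called ABCC4 with loss of Axl. ABCC5 (MRP5) and ABCC10 (MRP7) stayed at mean normalized counts between 25.7 and 55.9 in all 4 groups. Summed over the 8 efflux pumps, the mean normalized counts were 1849 in SNU449 control, 1861 in SNU449 Rego-resistant, 2074 in SNU449-Axl- control and 3442 in SNU449-Axl- Rego-resistant cells. These sums are without SD, and ABCC4 and ABCC3 contributed most of them in the last group.

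**Figure D3:**
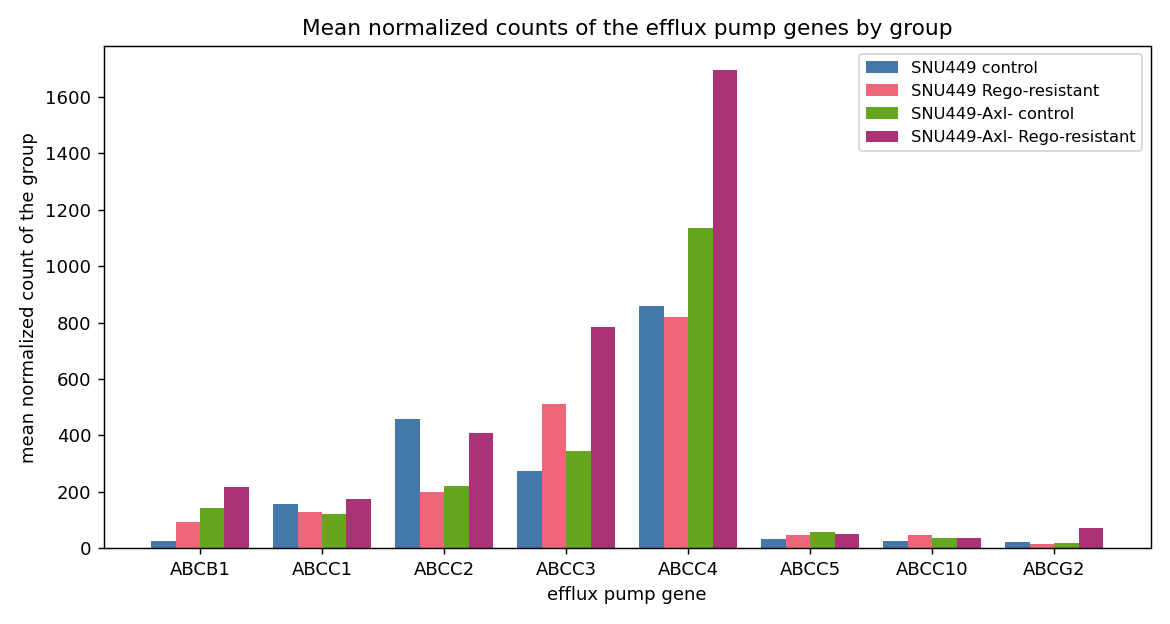
Bars give the mean normalized count of each of the 8 efflux pump genes (horizontal axis) in the 4 groups, solved from the authors' means and therefore without error bars. ABCB1 was lowest in SNU449 control cells at 24.7, and ABCG2 was highest in SNU449-Axl- Rego-resistant cells at 72.5.

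Of the 8 cholesterol and lipid transporter genes, 3 were called with Rego resistance in SNU449 (2 higher, 1 lower), beside 7.81% of all genes. In SNU449-Axl- cells 1 was called higher, beside 4.35% of all genes (2.54% higher). None were called with loss of Axl in control or Rego-resistant cells or for the difference between backgrounds (limma, 2, 3 and 1 at an unadjusted p under 0.05). The shares of all genes there were 7.45%, 4.37% and 5.87%. ABCA1, which hands cholesterol and phospholipids to apolipoprotein A-I, lies at chr9:104781006-104928155. Its library values were 785, 634 and 507 in SNU449 control cells and 423, 316 and 296 in SNU449 Rego-resistant cells, which did not overlap. SNU449-Axl- control cells spread from 266 over 450 to 643, and SNU449-Axl- Rego-resistant cells had 558, 547 and 511. ABCA1 fell by 0.89 ± 0.27 (SE) with Rego resistance in SNU449 (limma, adjusted p = 0.047), and its mean normalized count went from 611 to 262. The difference of the Rego effects was -1.23 (limma, adjusted p = 0.0626). It was called with spike-in centring and without the block, the more lenient fit (11.7% instead of 5.87% of all genes called). The ABCA1 call in SNU449 was lost among genes with a mean normalized count of at least 50 (adjusted p = 0.0588), where fewer genes were tested. It was also lost without SNU449 control library 1 or 2, SNU449 Rego-resistant library 2 or 3, SNU449-Axl- control library 2 or any SNU449-Axl- Rego-resistant library (limma, adjusted p up to 0.208).

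ABCA3, which loads phospholipids into the lamellar bodies of lung cells, was called in both backgrounds. It lies at chr16:2275881-2340746 on the minus strand. Its upstream stretch is shown because the gene rose with Rego resistance in SNU449 and in SNU449-Axl- cells, and covers bases -250 to -19 before the start site at chr16:2340747-2340978 on the minus strand (GRCh38.p14), inside the pseudogene ABCA17P on the other strand. Capitals mark an antioxidant response element (letters TGACNNNGC, from base -197) and a GC box (letters GGGCGG, from base -69).
ABCA3: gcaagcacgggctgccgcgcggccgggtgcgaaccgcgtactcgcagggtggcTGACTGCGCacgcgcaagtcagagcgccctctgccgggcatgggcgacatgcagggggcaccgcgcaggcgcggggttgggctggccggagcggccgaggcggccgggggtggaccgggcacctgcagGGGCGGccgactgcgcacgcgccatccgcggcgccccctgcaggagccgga
The ABCA3 library values were 59, 45 and 54 in SNU449 control cells, 73, 113 and 111 in SNU449 Rego-resistant cells, 52, 46 and 46 in SNU449-Axl- control cells and 117, 110 and 96 in SNU449-Axl- Rego-resistant cells. Rego-resistant libraries were above control libraries in both backgrounds without overlap. ABCA3 rose by 0.88 ± 0.21 (SE) in SNU449 and by 1.15 ± 0.21 (SE) in SNU449-Axl- cells (limma, adjusted p = 0.0134 and 0.00363), and its mean normalized count went from 22.6 to 70.1 and from 22.1 to 90.9. The call in SNU449-Axl- cells held without any of the 12 libraries and under all other settings. The call in SNU449 was lost in the table of the pair of groups (0.68, adjusted p = 0.0648) and without SNU449 control library 2 or Rego-resistant library 2 or 3 (limma, adjusted p = 0.094, 0.0939 and 0.0858). A pseudogene named after ABCA3 is annotated and could share reads with it.

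ABCA2, an endosomal lipid transporter, had library values of 26, 23 and 30 in SNU449 control cells and of 42, 43 and 46 in SNU449 Rego-resistant cells. SNU449-Axl- cells had 30, 35 and 32 as control and 42, 40 and 32 as Rego-resistant cells, which overlapped each other. ABCA2 rose by 0.72 ± 0.18 (SE) in SNU449 (limma, adjusted p = 0.0203), with mean normalized counts of only 1.03 and 14.1. It was not called in the table of the pair of groups (0.50, adjusted p = 0.0788), nor without SNU449 control library 1 or 2 or any SNU449 Rego-resistant library (limma, adjusted p from 0.0513 to 0.127). ABCA5, ABCA7, ABCA10, ABCA12 and the cholesterol exporter gene ABCG1 passed the test in no comparison. The end of ABCA5 overlaps ABCA10 on the same strand, so that reads there could belong to either gene.

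Of the ABCD transporters, ABCD3 alone was called. It encodes the peroxisomal membrane protein PMP70, which imports branched-chain and long-chain acyl groups, and lies at chr1:94418389-94518666. The ABCD3 library values were 573, 515 and 664 in SNU449 control cells and 369, 353 and 311 in SNU449 Rego-resistant cells. In SNU449-Axl- cells they were 460, 543 and 455 in control and 463, 457 and 480 in Rego-resistant cells. The SNU449 Rego-resistant libraries were below all others. ABCD3 fell by 0.76 ± 0.18 (SE) in SNU449 (limma, adjusted p = 0.0134), and its mean normalized count went from 557 to 271, whereas it was 511 and 512 in SNU449-Axl- control and Rego-resistant cells. Of 8 other genes within 1 Mb, which had a median fold change of -0.40, 5 were at an unadjusted p under 0.05, GCLM was called lower and TLCD4 higher (limma, named after their values were seen). The call of ABCD3 was lost in the table of the pair of groups (-0.74, adjusted p = 0.0646) and without SNU449 control library 3 or Rego-resistant library 3 (limma, adjusted p = 0.0754 and 0.0744). The difference of the Rego effects on ABCD3 was called only without the block, the more lenient fit. ABCD4, a lysosomal protein of cobalamin transport, had mean normalized counts between 33.4 and 66.5. None of 9 listed genes of peroxisome assembly and beta-oxidation were called in any comparison (limma, at most 1 at an unadjusted p under 0.05), with medians between -0.10 and 0.05.

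**Figure D4:**
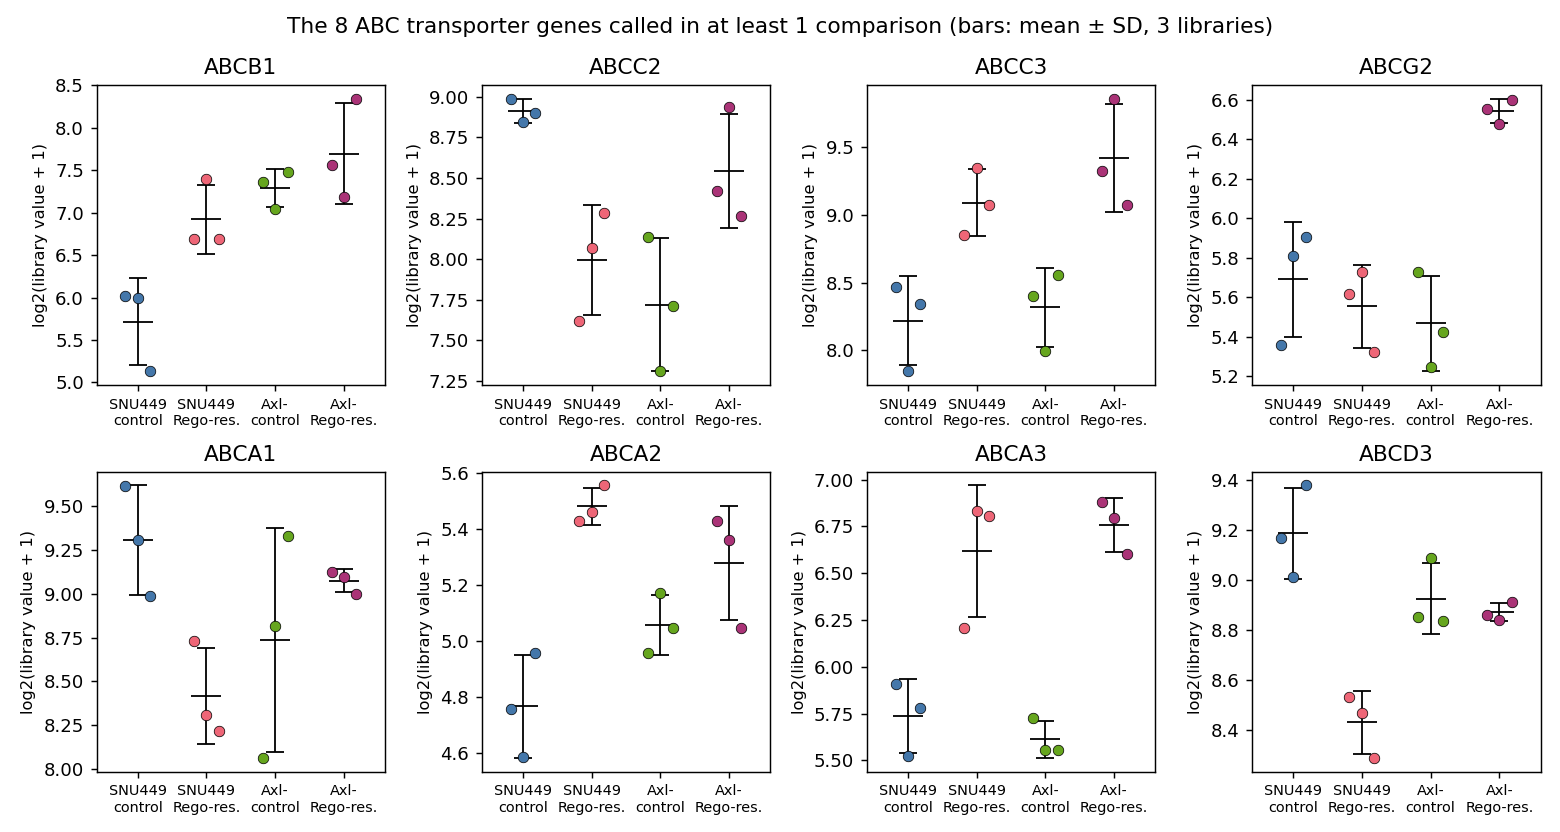
Points are the 3 libraries of each group as log2(library value + 1) (vertical axis, scaled to each gene) for the 8 ABC transporter genes called in at least 1 comparison, and bars are mean ± SD. ABCC3 and ABCA3 were higher in both Rego-resistant groups, ABCG2 was higher in the SNU449-Axl- one, and ABCC2 was lower in SNU449 Rego-resistant libraries and, not called, 0.82 higher in SNU449-Axl- ones.

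The mitochondrial and lysosomal members ABCB8, ABCB9 and ABCB10 and the proteins without membrane domains, ABCE1, ABCF1, ABCF2 and ABCF3, were called in no comparison. The library values of ABCB10, which acts in heme synthesis, spread from 75 to 133 over all 12 libraries. ABCE1, the ribosome recycling factor, had values from 347 to 544. ABCF1, a translation initiation protein, had values from 835 to 1311. In the more lenient fit without the block, ABCF2, whose end overlaps another gene on the same strand, was called with loss of Axl in Rego-resistant cells. In all, 19 of the 27 genes were called in no comparison, with fold changes from -0.77 to 0.84 and a lowest adjusted p of 0.0611 (limma). TAP1 and TAP2, the peptide transporters of antigen presentation and ABC genes by structure but not by name, were not called either.

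The Rego effects in the 2 backgrounds rest on separate libraries, but they share the fit, its block and the removal of the preparation effect. ABCC3 and ABCA3 were called higher in both. ABCB1, ABCA2, ABCA1, ABCC2 and ABCD3 were called in SNU449 only and ABCG2 in SNU449-Axl- cells only, but the effects were called different for ABCC2 and ABCG2 alone. Of the 25 other genes, the difference ranged from -1.23 to 0.84 (limma, lowest adjusted p = 0.0626).

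**Figure D5:**
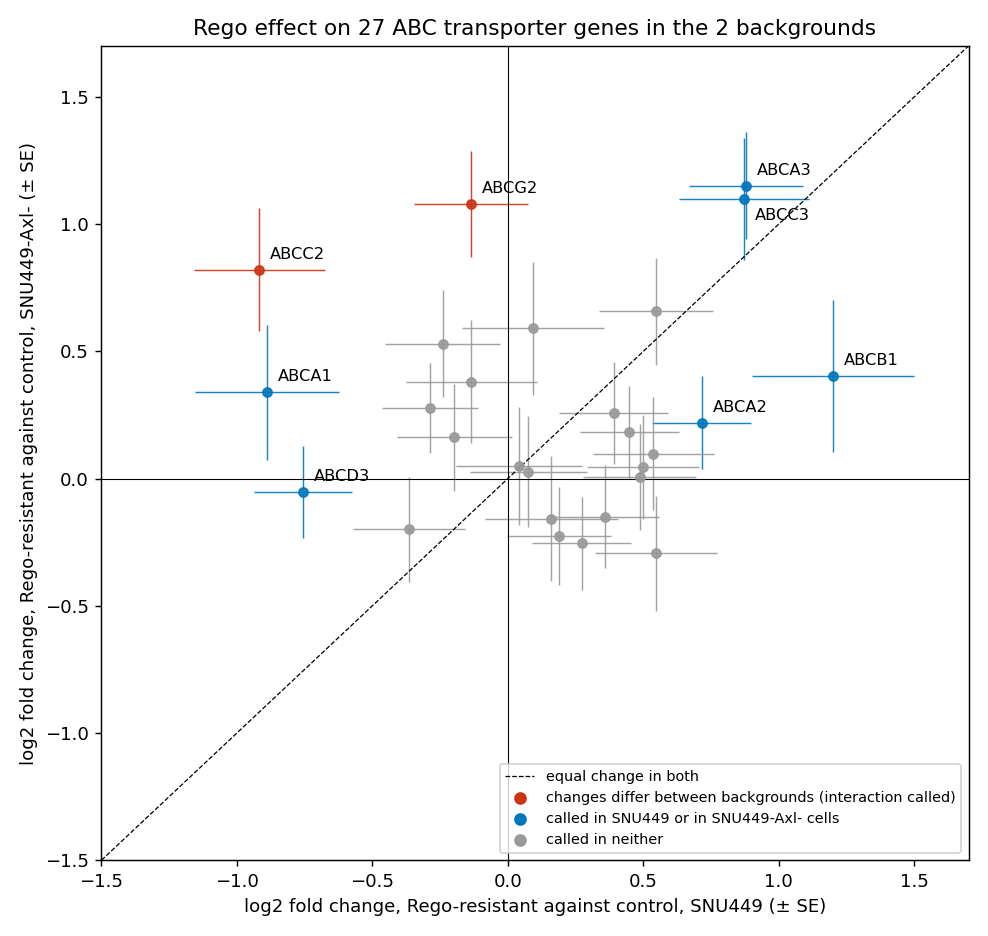
Log2 fold change of Rego-resistant against control cells in SNU449 (horizontal axis) and in SNU449-Axl- cells (vertical axis) for the 27 ABC transporter genes, with SE bars and a dashed line of equal change. ABCC2 (-0.92 and 0.82) and ABCG2 (-0.14 and 1.08), in red, were called different between the backgrounds, while ABCC3 stood at 0.87 and 1.10 and ABCA3 at 0.88 and 1.15.

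Loss of Axl shifted the median of all genes by 0.21 in control cells and 0.31 in Rego-resistant cells when libraries were centred on their spike-in RNAs, and Rego resistance by 0.14 in SNU449-Axl- cells and 0.05 in SNU449. With that centring, 4 genes were called with loss of Axl in control cells (3 higher, 1 lower, instead of 1 and 1), beside 9.54% of all genes (8.06% higher). In Rego-resistant cells 7 were called (all higher, instead of 1), beside 11.5% of all genes (11.1% higher). ABCB1 was among the 7, at 1.07 (limma, adjusted p = 0.0314).

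Genes that act on ABC transporter transcription were read from a list of 21 regulators, of which 17 were in the table. STAT3, a transcription factor of cytokine signaling, rose with Rego resistance by 1.54 in SNU449 and 0.70 in SNU449-Axl- cells and by 0.67 with loss of Axl in control cells (limma, adjusted p = 4.87e-05, 0.0444 and 0.0395). Its library values were 489, 543 and 435 in SNU449 control cells and 1417, 1522 and 1331 in SNU449 Rego-resistant cells. PPARG, the lipid-sensing nuclear receptor, had 148, 238 and 312 in SNU449 control and 75, 66 and 71 in SNU449 Rego-resistant cells. PPARG fell by 1.64 with Rego resistance in SNU449, and was 1.33 higher in SNU449-Axl- than in SNU449 Rego-resistant cells (limma, adjusted p = 0.000507 and 0.00554). PPARA rose by 0.74 with Rego resistance in SNU449, and KEAP1, which holds the antioxidant factor NRF2 in check, by 0.78 with loss of Axl in control cells (limma, adjusted p = 0.0487 and 0.0272). Leaving out single libraries ended neither the STAT3 nor the PPARG call with Rego resistance in SNU449. It ended the other STAT3 calls for 7 and 8 of the 12 libraries (adjusted p up to 0.241), that of PPARA for 10 (up to 0.217), that of KEAP1 for 5 (up to 0.129) and that of PPARG with loss of Axl for SNU449-Axl- Rego-resistant library 2 (0.0665). In total, 2 of the 17 regulators were called higher and 1 lower with Rego resistance in SNU449, beside 7.81% of all genes. In SNU449-Axl- cells 1 was called higher, beside 4.35%. Loss of Axl gave 2 called higher in control cells and 1 higher in Rego-resistant cells, beside 7.45% and 4.37% of all genes.

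Drug carriers outside the family were listed as well, 27 genes of which 17 were in the table. With Rego resistance in SNU449 3 were called higher and 2 lower, and in SNU449-Axl- cells 2 were called higher, beside 7.81% and 4.35% of all genes. Loss of Axl gave 2 called lower in control cells and 2 called higher in Rego-resistant cells, beside 7.45% and 4.37%. SLCO2B1, an organic anion uptake carrier, had library values of 73, 89 and 77 in SNU449 control, 21, 26 and 29 in SNU449 Rego-resistant, 45, 19 and 25 in SNU449-Axl- control and 54, 84 and 66 in SNU449-Axl- Rego-resistant cells. It was low in the same 2 groups in which ABCC2 was low. SLCO2B1 fell by 1.62 with Rego resistance in SNU449 and rose by 1.24 in SNU449-Axl- cells (limma, adjusted p = 0.000639 and 0.0106). With loss of Axl it fell by 1.48 in control cells and rose by 1.38 in Rego-resistant cells (limma, adjusted p = 0.00182 and 0.00511), the latter call lost without SNU449-Axl- Rego-resistant library 2 (0.0668). SLC22A3, an organic cation carrier, rose by 0.93 and 1.34, and in SNU449 the cation extruder SLC47A1 and the nucleoside carrier SLC29A1 rose by 1.07 and 1.08 (limma, adjusted p = 0.0181, 0.00257, 0.0038 and 0.00504). SLC47A2 was 0.74 lower with Rego resistance in SNU449 and 0.74 lower with loss of Axl in control cells (fold changes of -0.74 in both, limma, adjusted p = 0.00993 and 0.0104), and SLCO1B3 was 1.13 higher with loss of Axl in Rego-resistant cells (adjusted p = 0.0267). KCNJ8, a channel subunit that pairs with the ABC family's sulfonylurea receptors, rose by 0.87 with Rego resistance in SNU449-Axl- cells and by 0.76 with loss of Axl in Rego-resistant cells (limma, adjusted p = 0.00811 and 0.0191). Leaving out SNU449-Axl- control library 2 or 3 or Rego-resistant library 2 ended the rise of SLCO2B1 with Rego resistance (limma, adjusted p up to 0.12), and leaving out SNU449 control library 3 or Rego-resistant library 2 or 3 ended that of SLC22A3 in SNU449 (up to 0.139). The SLC47A2 calls were lost without 1 and 2 libraries (up to 0.0577), the SLCO1B3 call without 4 (up to 0.182) and the KCNJ8 calls without 2 and 5 (up to 0.134). Mean normalized counts over all libraries were low for SLC47A2 (2.696), KCNJ8 (3.407) and SLCO1B3 (11.07), so that these calls rest on few counts.

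RefSeq windows of the 250 bases before a start site were matched for 22 of the 27 genes, 33 windows in all. Motifs were searched on both strands. A GC box was found in 19 of the 33 windows of members and in 42.6% of all 35116 windows. A CCAAT box was in 7 of the 33 and in 32.0%, and the TATA box letters in 5 and in 10.7%. The AP-1 pattern was in 2 and in 6.57%, and an antioxidant response element in 7 and in 10.9%. Windows of a gene can overlap, as in ABCG2, where the same GC boxes were counted in more than 1 window. A cyclic AMP response element (letters TGACGTCA) was found in 1 window of members and in 1.65% of all windows. These matches describe letters only.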

How the data were processed

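RNA from 12 samples in 4 groups was sequenced as QuantSeq 3′-end libraries. Per the labels and the study's methods, the authors trimmed reads with cutadapt 4.0, aligned them to GRCh38 with STAR 2.5.3a (GENCODE release 40, with spike-in sequences) and then ran DESeq2 between groups, with a term for the preparation date. The deposited library values, whole numbers of at least 12, were read as scores, namely 2 to the power of the variance-stabilized level once the effect of the preparation had been taken out. The signal of a gene is the authors' mean normalized count over the libraries of a table. The deposited fold changes and p-values of the authors' comparisons were not used.

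The 27 members and all gene lists were chosen with earlier results of these data known. The groups follow the labels. The table over 12 libraries was transformed to log2(value + 1) and fitted by lmFit and eBayes with trend of limma 3.58.1 (R 4.3.3) over 15601 genes, without spike-ins, with 4 groups and the replicate number as a block. After removal of group means, the mean of the libraries sharing a number deviated by a median of 0.0013, against 0.122 for a single library, as removal of an effect along that number leaves it, and in the tables of 2 groups libraries with the same number deviated oppositely (r between -1.0 and -0.999 over genes). The block accounts for this use of degrees of freedom. A fit without it counts more degrees of freedom than are left, so its calls are more lenient. Both fits were run on simulated data before use. The share of unchanged genes at an unadjusted p under 0.05 was checked for the fit with the block only.

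Group means of normalized counts were solved by non-negative least squares from the authors' means of 6 pairwise and the 12-library tables (median error 0.377% over 13678 genes). Fold changes were named for each called gene and comparison, and in every comparison for ABCB1, ABCC1, ABCC2, ABCC3 and ABCG2, with other genes from the lists only where called. GENCODE release 44 and RefSeq windows (GRCh38.p14) gave annotation and sequence. Alternatives were no block, the other 12-library table, tables of 2 groups, a pseudocount of 0, a minimum mean normalized count of 50, upper-quartile rescaling, spike-in centring, eBayes without trend, and leaving out each library. Read counts were not analysed here. Python 3.11.15 with numpy 2.4.6, scipy 1.17.1 and pandas 2.3.3 was used. Some members and listed genes are not reported here by name.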

Additional observations from a re-analysis of the deposited data

Results flagged for a closer look

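The Rego effect differed between SNU449 and SNU449-Axl- cells, by the interaction term in limma, for 2 ABC transporter genes. The effect in SNU449 minus that in SNU449-Axl- cells was -1.74 on the log2 scale for ABCC2 and -1.21 for ABCG2 (adjusted p = 0.00476 and 0.019). Leaving out single libraries ended the call of ABCG2 for 5 of the 12 libraries (up to 0.0837) and that of ABCC2 for none. Among the listed genes outside the family, the difference was -1.27 for PPARG, -2.86 for SLCO2B1, -0.989 for SLC47A2, 1.16 for SLC29A1 and 1.07 for CROT (limma, adjusted p between 0.000149 and 0.0452). These calls were lost without any one of 9 of the 12 libraries for PPARG (adjusted p up to 0.157), 8 for SLC29A1 (up to 0.152), 7 for CROT (up to 0.0962) and 2 for SLC47A2 (up to 0.061), whereas that of SLCO2B1 held without each. The call of PPARG was also lost among genes with a mean normalized count of at least 50 (0.0532), and those of SLC29A1 and CROT with spike-in centring (0.0998 and 0.0873). Among the marker genes of cell state, it was -1.96 for GPC3 and -4.71 for FN1 (limma, adjusted p = 0.00246 and 3.44e-05). Groups of 3 libraries were not tested for libraries standing apart.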

How the results depend on the processing

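The other 12-library table, a pseudocount of 0, upper-quartile rescaling and eBayes without trend changed no count of ABC transporter genes called. Without the replicate block, the counts were 7 and 5 for Rego resistance in SNU449 and SNU449-Axl- cells, 2 and 3 for loss of Axl in control and Rego-resistant cells, and 4 for the difference between backgrounds. In that order, 13.9%, 9.95%, 14.0%, 9.63% and 11.7% of all genes were called. The tables of pairs of groups gave 3 for Rego resistance in SNU449, beside 4.36% of all genes there. They gave 4 for loss of Axl in Rego-resistant cells, without a share of all genes to set beside it. Spike-in centring gave 5 for Rego resistance in SNU449-Axl- cells, also without such a share. With loss of Axl in control and Rego-resistant cells it gave 4 and 7, beside 9.54% and 11.5% of all genes. With a mean normalized count of at least 50, where 15 of the 27 genes were tested and ABCG2 was left out, none were called with loss of Axl in Rego-resistant cells (limma, 6 at an unadjusted p under 0.05) and 1 for the difference between backgrounds. Leaving out each library gave 1 to 7 and 1 to 4 genes for Rego resistance in SNU449 and SNU449-Axl- cells, 1 to 4 and 0 to 2 for loss of Axl in control and Rego-resistant cells, and 1 to 3 for the difference. Shares of all genes are not given for the minimum count or the left-out libraries. Where a share is missing, a change in a count may follow a change over all genes.

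No called fold change of a member turned its sign under any alternative run. Fold changes that were not called did so with a library left out. With Rego resistance in SNU449, ABCC1 ranged from -0.48 to 0.158 (above 0 without Rego-resistant library 2) and ABCG2 from -0.358 to 0.019 (0.009 without control library 3, 0.019 without Rego-resistant library 3). With Rego resistance in SNU449-Axl- cells, ABCB1 ranged from -0.028 (without Rego-resistant library 3) to 0.745. With loss of Axl, ABCC3 in control cells ranged from -0.147 to 0.315 (-0.147 without SNU449 control library 2, -0.060 without SNU449-Axl- control library 3) and ABCC1 in Rego-resistant cells from -0.205 to 0.434 (-0.205 without SNU449 and -0.075 without SNU449-Axl- Rego-resistant library 2). The difference for ABCC3 ranged from -0.477 to 0.063 (the latter without SNU449-Axl- Rego-resistant library 2). The cause of these changes was not tested. The unknown depth limits what low-count genes such as ABCA2, ABCG1, SLC47A2, KCNJ8 and SLCO1B3 can show.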
